A study of Mus musculus with 11 samples.

Results

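The Hox clusters are 4 runs of neighbouring homeobox genes that encode the transcription factors assigning identity along the head to tail axis of the embryo. All Hox genes of the GENCODE vM1 annotation of the mouse genome (mm9) were sought, and 38 of the 39 found are described here, whereas the remaining one was not analysed here. HoxA on chromosome 6 (chr6:52112350-52210874) was taken from Hoxa2 to Hoxa13 and holds 10 of these genes, HoxB on chromosome 11 (chr11:96055630-96229570) holds 10, HoxC on chromosome 15 (chr15:102751534-102867274) holds 9 and HoxD on chromosome 2 (chr2:74506367-74603200) holds 9, against 22225 protein-coding genes counted in all. Each cluster was compared with up to 200 kb on either side.

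Hox genes lie in the order in which they are used along the body axis, a property known as colinearity. Paralogs with low numbers (groups 1 to 4) act anteriorly and early, and those with high numbers (groups 9 to 13) act posteriorly and late. In ES cells, which are pluripotent cells from the early embryo, the clusters are a textbook case of chromatin held silent by Polycomb proteins while also carrying marks of activity, and they are unusually rich in CpG dinucleotides. Fibroblasts keep part of the code of their site of origin, so that some Hox genes are active in them.

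The data are 11 ChIP-Seq libraries, a method that counts DNA fragments bound to a protein of choice. MacroH2A2 is an H2A variant with a large extra domain, and H3.3 is an H3 variant that is deposited outside replication. HA-tagged MacroH2A2 (HA-Macro) or HA-H3.3 was placed at the Col1A1 locus of KH2 ES cells (129 X C57bl/6 background), where it is switched on with 2 μg/mL doxycycline (Dox) through M2rtTA expressed from ROSA26. Anti-HA libraries came from HA-H3.3 ES cells at 3 and 6 hours, HA-Macro ES cells kept without Dox or given it for 3, 6 or 12 hours, and HA-Macro MEFs (embryonic fibroblasts) given it for the same times, while an antibody to MacroH2A2 itself was used on cells that the labels call parental KH2 ES cells and wild type MEFs. The HA-Macro MEFs were derived from chimeric embryos, selected with puromycin against host cells and used at passage 2, and ES cells grown on feeder MEFs were freed of most of these by pre-plating. The antibody libraries each combine 2 replicates per the labels, which give no Dox treatment for them. The study's text instead describes antibody mapping in HA-Macro cells with and without Dox, so the line and Dox state behind these libraries are uncertain. No input library and no uninduced MEF library was analysed here, and the files carry no expression values with which cell identity could be checked.

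Each condition has 1 library, so that no difference can be set against a spread between replicates and no p-values are given. Reads are distinct mapped intervals counted by their midpoint and given as p.p.m. (reads per 1000000 of the library), and all intervals in brackets are 95% intervals for counting error only. A value in p.p.m. is a share of its library, so a change in the total amount of bound protein does not show in it. Depth ranged from 6448310 to 19869559 distinct intervals. The mean autosomal 5 kb window held 1.94 to 1.98 p.p.m. in every library, and is called the genome mean here. The HA-Macro ES libraries differ among themselves in their share of intervals on chromosome Y. The one at 3 hours holds 0.112%, near the 0.0673% to 0.102% of the HA-H3.3 and antibody ES libraries, whereas those at no Dox, 6 hours and 12 hours hold 0.0219% to 0.0244%, near the 0.0198% to 0.0226% of the HA-Macro MEF libraries. The antibody MEF library holds 0.0423%, against 0.100% for the antibody in ES cells, and the part of this in the antibody comparison was not tested. Ratios to 3 hours are therefore given with ratios to 6 hours beside them.

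Without Dox, the Hox clusters were nearly level with their surroundings in anti-HA reads. HoxA held 2.34 p.p.m. per 5 kb in this library, HoxB 2.05, HoxC 2.23 and HoxD 2.14, and the log2 ratio of the pooled clusters over the pooled flanks was 0.04 (-0.02 to 0.11). This library is the background for the tagged protein.

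MacroH2A2 seen with its own antibody was higher in all 4 clusters than in the genome mean in both cell types. In ES cells HoxA held 4.26 p.p.m. per 5 kb, HoxB 3.59, HoxC 3.33 and HoxD 4.03, from 656 to 1063 reads a cluster. In MEFs the values were 3.23 for HoxA, 3.04 for HoxB, 3.08 for HoxC and 3.42 for HoxD, so the 4 clusters lay closer together than in ES cells. The pooled clusters stood above the pooled flanks by a log2 ratio of 0.58 in ES cells (0.51 to 0.64) and 0.29 in MEFs (0.24 to 0.34). In ES cells each cluster exceeded each of its flanks beyond counting error, in 8 of 8 comparisons, and in MEFs in 7 of 8, the exception being the anterior flank of HoxB. HoxD stood out most from its surroundings in ES cells, by a log2 ratio of 1.02 over its anterior flank (0.86 to 1.18) and 0.86 over its posterior flank (0.71 to 1.02).

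Tagged MacroH2A2 stood less clearly above the flanks. In ES cells the clusters ranged from 2.51 to 2.91 p.p.m. per 5 kb at 3 hours, from 3.13 to 3.79 at 6 hours and from 2.93 to 3.40 at 12 hours. In MEFs they ranged from 2.92 to 3.54 at 3 hours, from 2.95 to 3.66 at 6 hours and from 2.82 to 3.49 at 12 hours, and HoxD was the highest cluster at each hour. The pooled log2 ratio of clusters over flanks was 0.19 (0.14 to 0.24), 0.42 (0.37 to 0.46) and 0.28 (0.24 to 0.33) at 3, 6 and 12 hours in ES cells, and 0.20 (0.14 to 0.26), 0.23 (0.17 to 0.29) and 0.15 (0.11 to 0.20) in MEFs. Of 8 flanks, the cluster was above beyond counting error in 5, 7 and 7 at 3, 6 and 12 hours in ES cells and in 4, 5 and 5 in MEFs, and below in 2 at 3 hours in ES cells and in 2 at 12 hours in MEFs. At 12 hours in MEFs the posterior flank of HoxA, at 3.61 p.p.m. per 5 kb, lay above the cluster itself at 3.13.

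**Figure D1:**
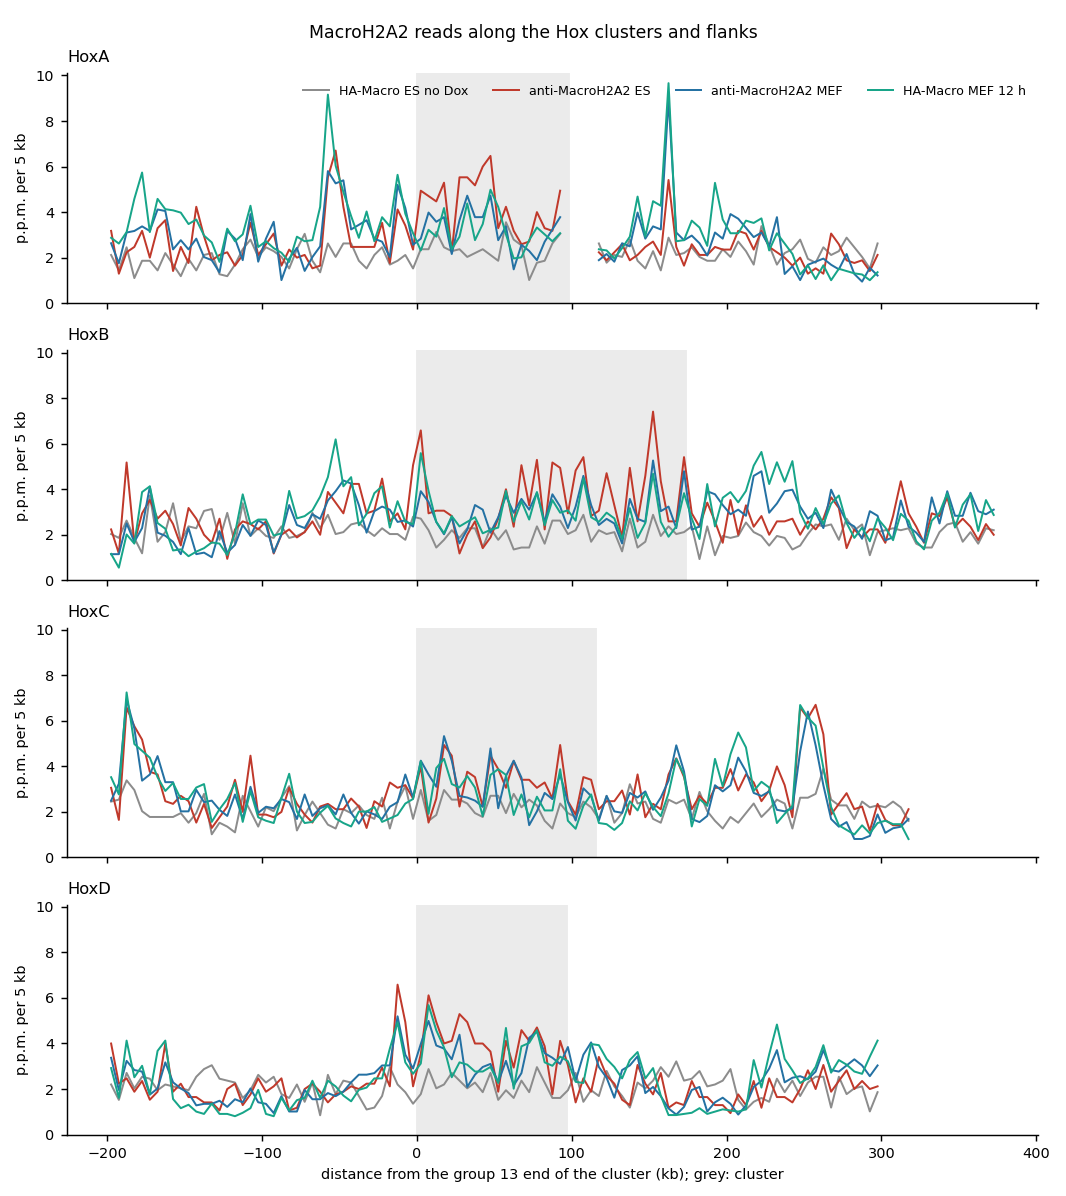
Reads in p.p.m. per 5 kb window (vertical axis) against the distance in kb from the group 13 end of each cluster (horizontal axis), with the cluster shaded, for the no Dox anti-HA library (grey), anti-MacroH2A2 in ES cells (red) and MEFs (blue) and HA-Macro MEFs at 12 hours (green). A stretch next to HoxA is left blank because it was not analysed here; the red line rises above the grey one over most of each cluster, and single windows in the flanks reach higher values than any in HoxA, such as 9.66 p.p.m. in HA-Macro MEFs at 12 hours.

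The flanks hold isolated windows that are higher than the average of the cluster beside them. Single windows inside clusters can also be high, up to 7.41 p.p.m. in HoxB for anti-MacroH2A2 in ES cells, above the highest flank window there. On the anterior side of HoxA, the window 160000 bp from the Hoxa13 end held 8.97 p.p.m. of anti-MacroH2A2 in MEFs and 5.41 in ES cells, and 12.2, 11.3 and 9.66 p.p.m. of HA-Macro in MEFs at 3, 6 and 12 hours. In HA-Macro ES cells the same window held 3.20, 6.33 and 6.55 p.p.m. at these times, against 2.88 in the uninduced library, so it was highest in the MEF libraries at every hour. This window has 36 CpGs, fewer than the median of 46 over 317 flank windows, and was picked out after its values were seen. The most HA-H3.3 in the flanks stood in the window at -180000 bp, outside the Hoxb13 end of HoxB and near Gip, at 10.9 p.p.m. at 3 hours and 20.7 at 6 hours.

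Between ES cells and MEFs, the share of anti-MacroH2A2 reads was lower in MEFs over 3 of the clusters. The study reports more MacroH2A2 in MEFs, and holds that the average promoter loss there is overestimated through normalization. A lower share is therefore not by itself a smaller amount. The log2 ratio of MEF over ES was -0.40 for HoxA (-0.54 to -0.26), -0.24 for HoxB (-0.35 to -0.13), -0.24 for HoxD (-0.38 to -0.09) and -0.11 for HoxC (-0.25 to 0.03), the last within counting error. Stretches within clusters, picked out after values were seen, are given as a description. In HoxA, genes 1 to 8 gave a log2 ratio of -0.41 (-0.60 to -0.21) and genes 9 to 13 gave -0.40 (-0.62 to -0.18), and in HoxD the values were -0.17 (-0.36 to 0.01) and -0.24 (-0.48 to -0.01), with overlapping intervals in both clusters. In HoxC, the stretch with genes 9 to 13 gave a log2 ratio of -0.01 (-0.19 to 0.18) and that with genes 1 to 8 gave -0.35 (-0.59 to -0.11), also with overlapping intervals. In HoxB, the 74009 bp between Hoxb13 and Hoxb9, which hold no Hox gene, gave 0.01 (-0.19 to 0.20), whereas the stretch from Hoxb9 to Hoxb1 gave -0.34 (-0.48 to -0.19).

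For single genes, reads were counted in the 5 kb centred on the annotated 5′ end, and 6 of the 38 genes share part of this window with a neighbour. In ES cells the median of anti-MacroH2A2 at the Hox genes was 4.41 p.p.m., and values ran from 2.12 at Hoxd4 to 7.53 at Hoxb13. All 38 lay above the genome mean, beside 16350 of 22225 of all genes. In MEFs the median was 3.37 p.p.m., from 1.55 at Hoxb3 to 5.73 at Hoxd12. There 37 lay above the genome mean, beside 12103 of 22225 of all genes. The annotated 5′ ends of Hoxd4 and Hoxb3 lie 5301 and 20923 bp from their start codons. Their low values are thus those of windows that do not cover the coding start. The medians over all protein-coding genes were 2.82 and 2.02 p.p.m. in the same libraries, so the Hox genes were above the typical gene in both cell types. This was not particular to them. Medians were 4.94 and 3.91 p.p.m. over 67 developmental transcription factors outside the clusters, and 5.88 and 4.35 over 6 ParaHox and Cdx genes.

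The change from ES cells to MEFs at the Hox genes was close to that of the median gene. All 38 passed the minimum of 10 reads in both libraries together, with a median log2 ratio of -0.41 against -0.42 for all genes, and 31 of 38 lay below 0, as did 16116 of 21391 of all genes counted. With a threshold of 2-fold, 0 Hox genes were higher and 1 was lower in MEFs, where 2.19% of all genes counted were higher and 15.8% lower, and the threshold is one of size, not a test. The single gene past it was Hoxb13, the posterior HoxB gene that lies apart from the rest of its cluster, with 64 reads or 7.53 p.p.m. in ES cells and 51 reads or 3.44 p.p.m. in MEFs, a log2 ratio of -1.13 (-1.69 to -0.58). Next came Hoxd8, a central gene of HoxD, at 4.59 and 2.36 p.p.m. (log2 ratio -0.96, -1.66 to -0.26) and Hoxb4, an anterior gene of HoxB, at 4.59 and 2.63 p.p.m. (-0.80, -1.48 to -0.12). At the other end, Hoxd4 held 2.12 and 2.77 p.p.m. (0.39, -0.45 to 1.27), Hoxc10 3.65 and 4.18 (0.20, -0.45 to 0.87) and Hoxa2 2.94 and 3.24 (0.14, -0.59 to 0.90). None of these 3 differed beyond counting error, and over the 38 genes the interval lay below 0 for 6 and above 0 for 0, beside 26.4% and 1.89% of all genes. In a window of 1.2 kb, 33 Hox genes passed the minimum, of which 2 were at least 2-fold higher and 6 lower, beside 4.49% higher and 40.1% lower of all genes counted in that window.

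**Figure D2:**
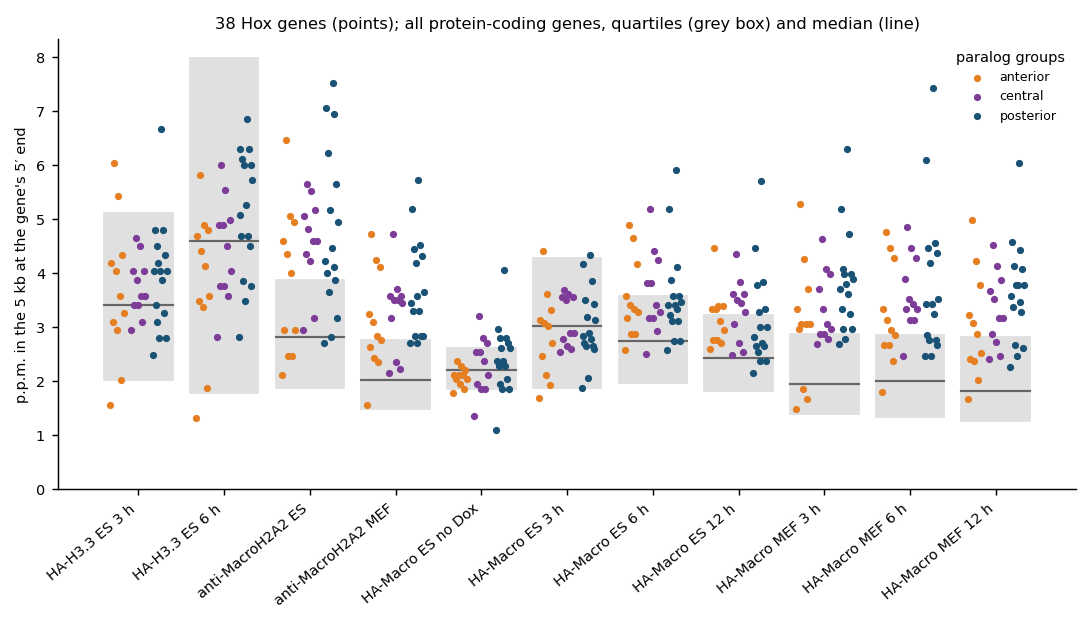
Reads in p.p.m. in the 5 kb at the 5′ end of each of 38 Hox genes (points, coloured by paralog groups 1 to 4, 5 to 8 and 9 to 13) in each of the 11 libraries (horizontal axis), with the quartiles (grey box) and the median (line) of 22225 protein-coding genes. In the MacroH2A2 libraries from MEFs most points lie above the line, whereas in the no Dox library and in HA-H3.3 at 6 hours they lie around it. In HA-Macro ES cells the medians of Hox and of all genes were 2.895 and 3.015 p.p.m. at 3 hours. They were 3.402 and 2.746 at 6 hours and 3.079 and 2.43 at 12 hours.

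Tagged MacroH2A2 at 12 hours differed between the clusters. Its log2 ratio of MEF over ES was 0.23 for HoxD (0.11 to 0.35) and -0.22 for HoxB (-0.31 to -0.13), with -0.07 for HoxA (-0.18 to 0.05) and -0.06 for HoxC (-0.17 to 0.06). Thus HoxD was higher in MEFs and HoxB lower. Their anterior and posterior flanks gave 0.286 and 0.151 for HoxD and 0.229 and -0.207 for HoxB. The change was thus shared with both flanks of HoxD and with the posterior flank of HoxB. At 6 hours the same clusters gave 0.11 (-0.03 to 0.24) and -0.24 (-0.35 to -0.14), and at 3 hours 0.37 (0.23 to 0.51) and 0.27 (0.15 to 0.38), so HoxD was the highest of the 4 at each hour while the sign for HoxB turned at 3 hours. The stretch of HoxD with genes 9 to 13 gave 0.45 (0.22 to 0.68), 0.28 (0.05 to 0.50) and 0.37 (0.16 to 0.57) at 3, 6 and 12 hours, and genes 1 to 8 gave 0.35 (0.16 to 0.54), 0.04 (-0.14 to 0.22) and 0.14 (-0.01 to 0.29). Genes 9 to 13 of HoxA went the other way after 3 hours, with 0.33 (0.10 to 0.55), -0.37 (-0.59 to -0.15) and -0.18 (-0.36 to 0.01).

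At the gene level the Hox genes centred on no change between ES cells and MEFs at 12 hours. Their median log2 ratio was -0.02, against -0.37 over all genes. Of the 38, 0 were at least 2-fold higher and 1 at least 2-fold lower, beside 2.13% higher and 12.3% lower of all genes counted, and the interval lay above 0 for 8 and below 0 for 3, beside 7.96% and 28% of all genes. Hoxb5, a central HoxB gene, held 2.54 p.p.m. in ES cells and 4.53 in MEFs (log2 ratio 0.83, 0.30 to 1.38). Hoxc13, the most posterior HoxC gene, held 2.66 and 4.43 (0.74, 0.21 to 1.28), and Hoxd11, a HoxD gene of limb and trunk patterning, held 2.15 and 3.57 (0.73, 0.15 to 1.34). The lowest were Hoxc4 at 3.33 and 1.66 p.p.m. (-1.005, -1.67 to -0.37), Hoxa10 at 4.46 and 2.62 (-0.77, -1.30 to -0.25) and Hoxb3 at 2.94 and 2.01 (-0.55, -1.18 to 0.08). The first 2 of these fell beyond counting error and Hoxb3 did not. For Hoxc4, Hoxa10 and Hoxb3 the annotated 5′ end lies 15787, 5920 and 20923 bp from the start codon, so their window does not cover the coding start.

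Hoxd12, a posterior gene of limb and hindgut patterning, was the highest Hox gene in every MEF library. It held 5.73 p.p.m. of anti-MacroH2A2 in MEFs and 6.29, 7.42 and 6.04 p.p.m. of HA-Macro at 3, 6 and 12 hours, from 68 to 120 reads. In ES cells it held 6.94 p.p.m. of anti-MacroH2A2, but 3.44, 3.88 and 3.79 p.p.m. of HA-Macro at the same hours and 2.71 without Dox. The log2 ratio of MEF over ES for HA-Macro was 0.87 (0.34 to 1.41), 0.94 (0.44 to 1.43) and 0.67 (0.23 to 1.13) at 3, 6 and 12 hours, whereas that of the antibody libraries was -0.28 (-0.77 to 0.23). The tagged protein was thus higher in MEFs at every hour, and the antibody gave no such difference beyond counting error. Hoxd12 was picked out after its MEF values were seen. Its HA-Macro ratios therefore lean upward, and their intervals do not allow for the choice. No uninduced MEF library gives a background for them.

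**Figure D3:**
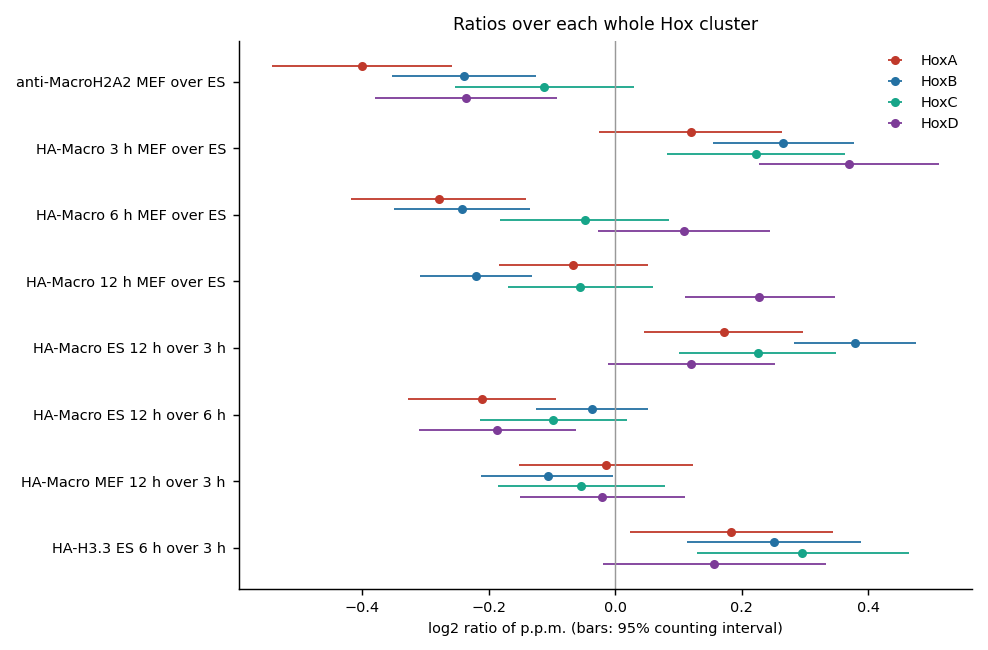
The log2 ratio of p.p.m. over each whole cluster (horizontal axis) for 8 comparisons (vertical axis), with bars for the 95% counting interval and a colour per cluster. The antibody ratios of MEF over ES lie below 0, from -0.40 to -0.11, while those of HA-Macro change with the hour and are highest for HoxD at each.

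The tagged protein was then followed by hour. In ES cells 3 clusters held a larger share of HA-Macro reads at 12 than at 3 hours beyond counting error and HoxD did not. The log2 ratios were 0.38 for HoxB (0.28 to 0.48), 0.23 for HoxC (0.10 to 0.35), 0.17 for HoxA (0.05 to 0.30) and 0.12 for HoxD (-0.01 to 0.25). With the libraries set to their median window the ratios were 0.27, 0.12, 0.066 and 0.015 in the same order, and the interval of HoxB alone stayed clear of 0. Against the 6 hour library the sign turned, with -0.21 for HoxA (-0.33 to -0.09), -0.19 for HoxD (-0.31 to -0.06), -0.10 for HoxC (-0.21 to 0.02) and -0.04 for HoxB (-0.13 to 0.05). The direction thus depends on which early library is used. Flanks also moved from 3 to 12 hours. Anterior and posterior flanks gave 0.047 and 0.445 for HoxA, 0.545 and 0.027 for HoxB, and 0.112 and 0.446 for HoxC. Those of HoxD gave -0.116 and -0.235. The 3 hour library differs from those at 6 and 12 hours in its share on chromosome Y, and the part of this in the result was not tested.

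At the genes the ratios were read beside those of all genes. The median log2 ratio of 12 over 3 hours was 0.14 for the Hox genes and -0.25 over all genes, and 1 Hox gene was at least 2-fold higher and 0 lower, beside 2.03% and 14.1% of all genes counted. In 1.2 kb these counts were 3 and 3 of 38, beside 6.24% and 29.4% of all genes. From 6 to 12 hours the medians were close, at -0.19 for Hox and -0.14 for all genes, with 0 Hox genes past 2-fold either way beside 0.369% higher and 1.19% lower of all genes. In that comparison Hoxd13 was lowest, from 4.12 to 2.37 p.p.m. (log2 ratio -0.80, -1.39 to -0.22), and Hoxb7, a central HoxB gene, was highest, from 2.51 to 3.62 (0.53, -0.06 to 1.13). Hoxa10, a posterior gene needed for uterine and limb patterning, rose most from 3 hours, from 34 reads or 2.05 p.p.m. to 79 reads or 4.46 p.p.m. (log2 ratio 1.12, 0.52 to 1.75). It held 2.03 p.p.m. in the uninduced library and 5.19 at 6 hours, so it was at background at 3 hours and well above it at 6 and 12. This window does not cover the coding start of Hoxa10, which lies 5920 bp away. In the first 500 bp of coding sequence Hoxa10 held 14, 14 and 10 reads at 3, 6 and 12 hours. In the 5 kb windows Hoxc4 followed with 1.69, 2.57 and 3.33 p.p.m. at 3, 6 and 12 hours (0.98, 0.31 to 1.69) and Hoxb3 with 1.93, 3.28 and 2.94 (0.61, -0.06 to 1.29). The lowest were Hoxa4 with 4.40, 3.40 and 2.77 p.p.m. (-0.67, -1.22 to -0.13), Hoxc12 with 4.34, 3.40 and 2.99 (-0.54, -1.08 to -0.004) and Hoxd8 with 3.56, 3.82 and 2.49 (-0.52, -1.11 to 0.07).

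Compared with the library without Dox, HA-Macro at 12 hours was higher beyond counting error at 13 of 38 Hox genes and lower at 0, beside 15.1% and 4.68% of all genes counted. Their median log2 ratio was 0.46, against 0.17 over all genes, and 35 of 38 were above 0, as were 13869 of 22208 of all genes counted. Past 2-fold were 4 higher and 0 lower, beside 5.74% and 2.66% of all genes counted. The 4 were Hoxa6 (1.35 p.p.m. without Dox, 3.62 at 12 hours), Hoxa13 (13 and 47 reads, or 1.1 and 2.66 p.p.m.), Hoxa10 and Hoxa3 (2.11 and 4.46), all in HoxA. Hoxa13 had the least background of the 38, and its value at 12 hours lay below the Hox median of 3.08. The windows of Hoxa6 and Hoxa3 overlap and share reads, and the 5′ end of Hoxa3 lies 40687 bp from its start codon. Over whole clusters the log2 ratio was highest for HoxB, at 0.735 (0.619 to 0.852). It was 0.488 for HoxA, 0.394 for HoxC and 0.481 for HoxD. Anterior and posterior flanks gave 0.45 and 0.573 for HoxA, 0.429 and 0.425 for HoxB, and 0.428 and 0.303 for HoxC. Those of HoxD gave -0.055 and -0.206. The flanks of HoxA and HoxC thus rose with their cluster, with overlapping intervals. Those of HoxB rose less than their cluster. At Hoxa11, which had the most background of the 38 with 4.06 p.p.m. without Dox, the 12 hour library held 3.28, so no signal above background was detectable there.

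In MEFs the share of HA-Macro reads at the Hox clusters changed little with time. From 3 to 12 hours the log2 ratio was -0.015 for HoxA (-0.15 to 0.12), -0.11 for HoxB (-0.21 to -0.003), -0.05 for HoxC (-0.19 to 0.08) and -0.02 for HoxD (-0.15 to 0.11). At the genes the median was -0.05 for Hox as for all genes, and 0 Hox genes passed 2-fold in either direction, beside 1.49% higher and 1.65% lower of all genes. Hoxd13, the most posterior HoxD gene, went from 5.18 to 3.47 p.p.m. (-0.58, -1.11 to -0.04), the single Hox gene whose interval lay clear of 0, beside 1.52% above and 3.2% below 0 of all genes. Hoxb2 went from 3.70 to 2.37 p.p.m. (-0.64, -1.28 to 0.00) and Hoxc10 from 3.88 to 2.67 (-0.54, -1.15 to 0.08). The highest ratios were those of Hoxa2, from 1.48 to 2.42 p.p.m. (0.71, -0.14 to 1.62), Hoxd1, from 2.96 to 4.23 (0.51, -0.09 to 1.15), and Hoxc13, from 3.33 to 4.43 (0.41, -0.16 to 1.01), and none of these 3 differed beyond counting error.

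**Figure D4:**
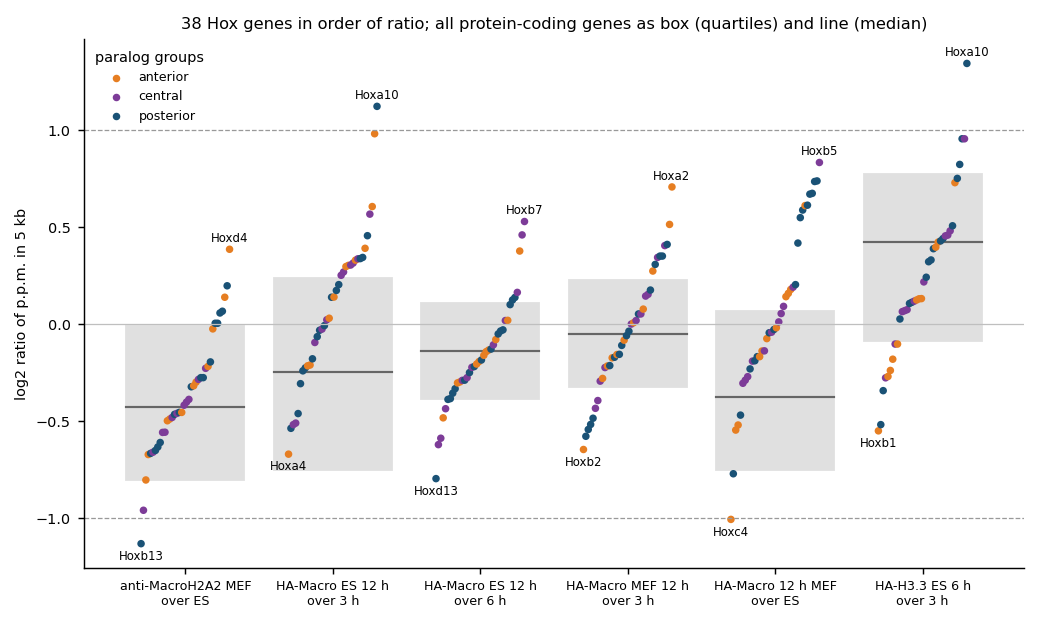
The log2 ratio of p.p.m. in 5 kb (vertical axis) for 38 Hox genes (points, in order of ratio and coloured by paralog groups) in 6 comparisons (horizontal axis), with the quartiles (grey box) and median (line) of all protein-coding genes and dashed lines at 2-fold. The points centre on the line for anti-MacroH2A2 MEF over ES (-0.41 against -0.42) and lie above it for HA-Macro ES 12 over 3 hours (0.14 against -0.25) and HA-Macro MEF over ES at 12 hours (-0.02 against -0.37).

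HA-H3.3 was above the genome mean in the clusters. At 3 hours HoxA held 3.87 p.p.m. per 5 kb, HoxB 2.92, HoxC 2.95 and HoxD 3.29, and at 6 hours 4.39, 3.48, 3.62 and 3.67 in the same order. From 3 to 6 hours the log2 ratio was 0.18 (0.02 to 0.34), 0.25 (0.11 to 0.39), 0.30 (0.13 to 0.46) and 0.16 (-0.02 to 0.33). With the libraries set to their median window, which fell from 1.86 p.p.m. at 3 hours to 1.41 at 6 hours, these ratios were larger, from 0.56 to 0.70. The pooled clusters stood above the pooled flanks by a log2 ratio of 0.27 at 3 hours (0.20 to 0.35) and 0.29 at 6 hours (0.23 to 0.34), and the cluster was above in 6 and 5 of 8 flanks. At 6 hours HA-H3.3 was lower in the cluster than in a flank beyond counting error for HoxB, whose posterior flank held 5.07 p.p.m. per 5 kb, and for HoxC, whose anterior flank held 4.02. At 3 hours this was so for HoxB alone, whose posterior flank held 3.35.

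At the Hox genes the median of HA-H3.3 was 3.88 p.p.m. at 3 hours and 4.70 at 6 hours, close to the 3.41 and 4.60 p.p.m. of all genes. The upper quartile of all genes at 6 hours, 7.98 p.p.m., lay above every Hox gene, of which Hoxc12 was highest at 6.86 and Hoxb3 lowest at 1.31. The 5′ end of Hoxb3 lies 20923 bp from its start codon, so its window does not cover the coding start. Hox genes gained less from 3 to 6 hours, with a median log2 ratio of 0.17 against 0.42, and 1 was at least 2-fold higher and 0 lower, beside 11.9% and 4.71% of all genes counted. Hoxa10 again rose most, from 16 reads or 2.48 p.p.m. to 67 reads or 6.29 p.p.m. (1.34, 0.54 to 2.23), followed by Hoxa13 and Hoxc5, each from 3.10 to 6.01 (0.95, 0.21 to 1.76). In the first 500 bp of coding sequence, outside its 5 kb window, Hoxa10 held 10 and 9 reads. The lowest were Hoxb1, the gene at the anterior end of HoxB that patterns the hindbrain, from 6.05 to 4.13 p.p.m. (-0.55, -1.21 to 0.11), Hoxc11, from 4.03 to 2.82 (-0.52, -1.32 to 0.30), and Hoxd12, from 6.67 to 5.26 (-0.34, -0.94 to 0.27). None of these 3 fell beyond counting error.

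Anterior and posterior genes were set side by side as a description, since genes of a cluster are neighbours and not replicates. The 11 genes of groups 1 to 4 had median log2 p.p.m. of 1.50 for anti-MacroH2A2 in MEFs and 1.52 for HA-Macro in MEFs at 12 hours, the 11 of groups 5 to 8 had 1.81 and 1.67, and the 16 of groups 9 to 13 had 1.81 and 1.88. Posterior genes were thus higher than anterior genes in MEFs, by 0.31 and 0.36 on the log2 scale. Some 5′ ends lie far from the start codon, as for anterior Hoxa3 (40687 bp) and Hoxd3 (32083 bp) and posterior Hoxa10 (5920 bp). By stretch, HA-Macro in MEFs at 12 hours gave p.p.m. per 5 kb in genes 1 to 8 and 9 to 13. These were 3.11 and 3.14 in HoxA, 2.24 and 3.26 in HoxC, and 3.36 and 3.82 in HoxD. In ES cells posterior genes were also higher with the antibody, at 2.12 against 2.00 for anterior genes, and in HA-Macro cells without Dox, at 1.24 against 1.08, so the background library leans the same way. HA-Macro in ES cells gave anterior against posterior medians of 1.59 and 1.52 at 3 hours, 1.74 and 1.77 at 6 hours and 1.64 and 1.54 at 12 hours. For the log2 ratio of MEF over ES at 12 hours the medians were -0.07, -0.04 and 0.31 for anterior, central and posterior genes, and for the antibody libraries -0.32, -0.46 and -0.30. In the 1.2 kb window the anterior minus posterior difference of the antibody ratio was -0.46, against -0.018 in 5 kb. HA-H3.3 at 6 hours was also higher at posterior genes, with median log2 p.p.m. of 2.05, 2.17 and 2.37. CpG content moved with these stretches, at 34.9 CpGs per kb in the genes 9 to 13 stretch of HoxD against 24.7 in genes 1 to 8, and its part in the result was not tested.

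Inside the genes, reads gathered in the 500 bp of genome downstream of the start codon. Where the first coding exon is shorter, as in Hoxa13 (138 bp), this window runs into the intron. This window was chosen after its values were seen, so its levels are a description. Over the 38 Hox genes, reads per bp from the start codon to 500 bp downstream were compared with those 2000 to 5000 bp away on both sides. Anti-MacroH2A2 in ES cells stood 3.32-fold above these surroundings (2.95 to 3.73, from 373 reads) and in MEFs 2.53-fold (2.27 to 2.81, from 426 reads). HA-Macro in MEFs gave 2.13-fold (1.86 to 2.44) at 3 hours, 2.49-fold (2.19 to 2.82) at 6 hours and 2.09-fold (1.89 to 2.31) at 12 hours. In ES cells it gave 2.23-fold (1.98 to 2.49), 1.72-fold (1.54 to 1.91) and 1.59-fold (1.42 to 1.78) at 3, 6 and 12 hours. HA-H3.3 gave 2.57-fold (2.18 to 3.01) at 3 hours and 2.10-fold (1.85 to 2.37) at 6 hours. The library without Dox showed the same rise, 2.02-fold (1.73 to 2.36, from 194 reads). Set directly against this background fold, HA-H3.3 at 3 hours was 1.27 times as high (1.01 to 1.59), HA-Macro MEFs at 6 hours 1.23 times (1.005 to 1.51) and HA-Macro ES cells at 12 hours 0.786 times (0.648 to 0.956), while the intervals of the other 5 induced anti-HA libraries included 1. No library without Dox of HA-H3.3 cells or of MEFs stands behind these ratios. Intervals span 400 bp in the HA-H3.3 libraries and 150 bp in the one without Dox, and the part of this was not tested. As a level, the window held 4.32 p.p.m. per 5 kb without Dox, 5.73, 6.02 and 5.00 at 3, 6 and 12 hours in HA-Macro ES cells and 6.28, 7.38 and 6.04 in MEFs.

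The rise was less marked before the start codon. In the 500 bp upstream of it the fold was 1.34 for anti-MacroH2A2 in ES cells, 1.35 in MEFs, 1.20 for HA-Macro MEFs at 12 hours and 1.04 without Dox. In 100 bp bins, anti-MacroH2A2 in ES cells went from 32 reads in the last bin upstream to 74 in the first bin of coding sequence, and HA-Macro MEFs at 12 hours held 38 and 53 reads in these bins and 117 in the bin from 300 to 400 bp. Over 21540 protein-coding genes with an annotated start codon, the fold was 2.24 for anti-MacroH2A2 in ES cells, 1.62 in MEFs, 1.37 for HA-Macro MEFs at 12 hours and 1.34 without Dox. Over 67 developmental transcription factors outside the clusters, it was 2.31, 1.64, 1.47 and 1.67 in the same order, so the Hox value was the highest of the 3 in each of these 4 libraries. HA-H3.3 at 6 hours was an exception, with 2.30-fold over all genes and 2.10-fold over Hox genes. The 13 Hox genes whose start codon lies over 2500 bp from the annotated 5′ end gave 2.32-fold in ES cells (1.86 to 2.86) and 2.24-fold in MEFs (1.87 to 2.67) with the antibody, no more than the 2.32-fold without Dox (1.79 to 2.98) at the same genes, and the other 25 gave 4.00-fold (3.47 to 4.59) and 2.72-fold (2.38 to 3.11), against 1.87-fold without Dox (1.53 to 2.27).

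**Figure D5:**
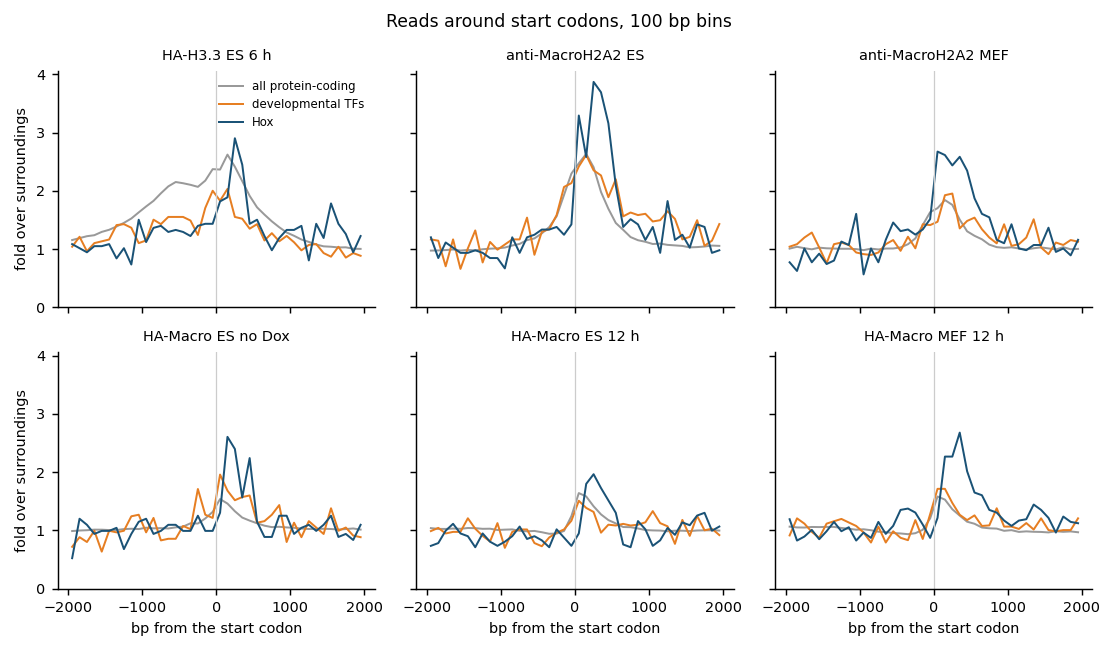
Reads per bp in 100 bp bins as fold over the surroundings (vertical axis) against the distance in bp from the start codon (horizontal axis) for 38 Hox genes (blue), 67 developmental transcription factors (orange) and 21540 protein-coding genes (grey) in 6 libraries. The blue line rises just after the start codon in each panel, the library without Dox included, and is highest for anti-MacroH2A2 in ES cells.

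The last coding exon, which carries most of the homeobox in typical Hox genes, was less marked. Over the 38 genes the first coding exon held 11.03 p.p.m. per 5 kb of anti-MacroH2A2 in ES cells, the last one 6.39, and the intron between them 3.72 in the 37 genes with 2 coding exons. In MEFs the values were 7.48, 4.86 and 3.44. For HA-Macro in MEFs at 12 hours they were 6.30, 3.84 and 3.45, and without Dox 4.38, 3.29 and 2.15. First exon, last exon and intron kept this order in each of the 11 libraries. The 500 bp downstream of the start codon also differ in composition, with a median of 41 CpGs and 64.3% GC over the Hox genes. Their surroundings had 9.58 CpGs per 500 bp and 47.3% GC, and the same window of all genes had 12 CpGs and 53.3% GC. The developmental transcription factors had 42 CpGs and 64.6% GC, close to the Hox values. The part of base composition in these folds was not tested.

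Coding sequence from the start codon is shown for a pair of Hox genes with many reads in this window, summed over the 11 libraries, and for 1 with few, to let the CpG content be read beside the reads. Each run is 300 bases of the plus strand of NCBIM37 (mm9), 5′ to 3′, with every CpG in capitals, and CpGs are counted in these 300 bases whereas reads are those of the 500 bp window. Hoxb13 (chr11:96055757-96056056, 156 reads, 9 CpGs) and Hoxb8 (chr11:96144277-96144576, 153 reads, 27 CpGs) were among the 3 genes with the most reads, and Hoxd10 (chr2:74530037-74530336, 51 reads, 6 CpGs) was among the 3 with the fewest of those whose first coding exon has at least 300 bp. The sum weighs deeper libraries more and includes the one without Dox, so the choice is for display only.
Hoxb13: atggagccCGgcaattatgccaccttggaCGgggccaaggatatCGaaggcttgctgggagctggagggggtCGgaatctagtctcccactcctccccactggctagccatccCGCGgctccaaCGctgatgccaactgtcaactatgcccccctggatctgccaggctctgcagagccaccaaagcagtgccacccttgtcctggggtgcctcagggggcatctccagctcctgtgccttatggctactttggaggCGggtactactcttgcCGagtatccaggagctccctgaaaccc
Hoxb8: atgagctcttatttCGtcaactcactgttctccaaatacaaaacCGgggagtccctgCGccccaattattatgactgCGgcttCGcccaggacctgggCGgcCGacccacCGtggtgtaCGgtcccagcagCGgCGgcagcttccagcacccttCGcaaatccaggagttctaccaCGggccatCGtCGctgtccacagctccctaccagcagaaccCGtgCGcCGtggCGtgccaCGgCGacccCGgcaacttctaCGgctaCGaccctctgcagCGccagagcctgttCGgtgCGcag
Hoxd10: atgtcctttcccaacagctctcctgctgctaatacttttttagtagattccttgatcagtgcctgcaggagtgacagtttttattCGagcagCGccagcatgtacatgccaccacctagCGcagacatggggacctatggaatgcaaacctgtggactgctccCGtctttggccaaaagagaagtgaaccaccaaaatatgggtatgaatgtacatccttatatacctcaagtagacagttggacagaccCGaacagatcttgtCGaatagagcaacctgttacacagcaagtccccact

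The median over the 38 genes was 25.5 CpGs in these 300 bases, against 9 over all genes. Of the 156 reads at Hoxb13, 21 came from anti-MacroH2A2 in ES cells, 10 from the antibody in MEFs, 25 from HA-Macro MEFs at 12 hours and 5 from the library without Dox.

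Across 95 windows of 5 kb inside the clusters, reads and CpG number were correlated with Pearson's r of 0.66 for anti-MacroH2A2 in ES cells, 0.46 in MEFs, 0.68 and 0.54 for HA-H3.3 at 3 and 6 hours and 0.44 without Dox. HA-Macro in ES cells gave 0.62, 0.42 and 0.12 at 3, 6 and 12 hours, and in MEFs 0.45, 0.49 and 0.44. The windows share their library and are neighbours, so these values are a description and carry no p-value. In ES cells the value was lowest at 12 hours. Over 494476 autosomal windows r was 0.46, 0.43 and 0.41 at the same hours.

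Genes beside the clusters and in related pathways were read in the same way. Among 15 neighbours of the clusters, 4 were at least 2-fold lower in MEFs with the antibody and 0 higher, with a median log2 ratio of -0.70, beside 15.8% lower, 2.19% higher and a median of -0.42 over all genes. Evx1, the even-skipped homeobox gene beside HoxA, held 7.41 p.p.m. in ES cells and 5.33 in MEFs with the antibody (-0.48, -0.97 to 0.03), but 3.16 and 6.19 p.p.m. of HA-Macro at 12 hours (0.97, 0.50 to 1.45). Hnrnpa3, an RNA-binding protein gene that lies beyond the anterior flank of HoxD, went from 5.61 p.p.m. of HA-Macro in ES cells at 3 hours to 1.36 at 12 hours (-2.05, -2.76 to -1.39), and held 2.75 at 6 hours. In that comparison 5 of the 15 neighbours were at least 2-fold lower, beside 14.1% of all genes, and from 6 to 12 hours 1 of 15, beside 1.19%. Among 67 developmental transcription factors, 0 were higher and 7 lower in MEFs with the antibody (median -0.42), and HA-Macro at 12 hours gave a median MEF over ES ratio of 0.28 with 1 higher and 0 lower, beside -0.37, 2.13% and 12.3% for all genes. Of 18 Polycomb subunits 3 were lower with the antibody (median -0.70), as were 2 of 9 TALE cofactors (-0.80), 5 of 9 Trithorax subunits (-1.01) and 0 of 6 ParaHox and Cdx genes (-0.38), and 0 of any of these lists were higher. These counts stand beside the same 15.8% lower of all genes, and 3 of 18 and 7 of 67 lie near or below that share.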

How the data were processed

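ChIP-Seq reads were processed by the authors, who collapsed reads by sequence, aligned them to mm9 with Bowtie (version 1.0 per the labels) allowing 1 mismatch, placed reads that map to several locations at one of them at random and extended each. The deposited files list these mapped intervals, with no score used and no normalization. Intervals span 150 bp in HA-Macro libraries and 400 bp in the others, apart from at most 66 of another length in a library, and some run past a chromosome's end. Whether the difference in length affects a comparison between them was not tested.

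Identical intervals were counted once, each at its midpoint, on chromosomes 1 to 19, X and Y, and scaled per 1000000. Ratios carry exact conditional binomial intervals at 95%. A gene was called at 2-fold in 1 direction where both libraries together held at least 10 reads. The members, gene lists and windows were chosen with earlier results of these data known. Named genes are the 3 highest and 3 lowest ratios per comparison, the outermost genes of each cluster, the genes with the most and fewest reads in a library, and members of the other lists, while stretches, the start-codon window, single flank windows and Hoxd12 across libraries were chosen after values were seen. Alternatives were scaling to the median window of the autosomes or of the chromosome, every interval, coverage, thinning, trimmed clusters, no minimum, a narrower window and 6 hours as the early time. Windows at the start codon, repeats counted there and whole first exons were added after seeing the data. Intervals were tested on simulated data. Sequences and gene models are from NCBIM37 (mm9) and GENCODE vM1. The sequences of the other genes in these sets are not reported here. Python 3.11.15, numpy 2.4.6, pandas 2.3.3, scipy 1.17.1 and matplotlib 3.10.9 were used.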

Additional observations from a re-analysis of the deposited data

Results flagged for a closer look

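The HoxB cluster moved in opposite directions between 3 and 12 hours of HA-Macro in the 2 cell types. It was found by searching all clusters and flanks for intervals on opposite sides of 0. The log2 ratio of 12 over 3 hours was 0.38 in ES cells (0.28 to 0.48) and -0.11 in MEFs (-0.21 to -0.003), with 1 library behind each value, and the difference itself was not tested. With 6 hours as the early time the ES value was -0.04 (-0.13 to 0.05), so the opposite direction depends on which early ES library is used. From 3 to 12 hours the anterior and posterior flanks of HoxB gave 0.545 and 0.027 in ES cells. In MEFs they gave -0.071 and -0.113. With the libraries set to their median window the ES value of the cluster was 0.27.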

How the results depend on the processing

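Of 252 values of 47 results under alternatives, 219 stayed within the counting interval or 1.5 times the count, 30 moved and 3 that had lain beyond counting error turned sign. With 6 hours as the early time, the HA-Macro ES ratio of 12 hours was -0.21 for HoxA, -0.037 for HoxB, -0.10 for HoxC and -0.19 for HoxD, so all 4 changed sign, HoxD from a value within counting error, and 0 Hox genes were at least 2-fold higher. Scaling to the autosomal median window gave 0.066, 0.27, 0.12 and 0.015 for HoxA to HoxD in the HA-Macro ES ratio of 12 over 3 hours, which leaves HoxA and HoxC within counting error, and 0.58, 0.65, 0.70 and 0.56 for HoxA to HoxD in HA-H3.3 6 over 3 hours, and HA-H3.3 log2 levels over the genome at 6 hours of 1.64, 1.30, 1.36 and 1.38. Scaling to the chromosome's median window gave 0.053 for HoxA and -0.093 for HoxB in HA-Macro MEF over ES at 12 hours, 0.56, 0.53, 0.70 and 0.46 for HoxA to HoxD in HA-H3.3 6 over 3 hours, HA-H3.3 levels at 3 hours of 1.18 for HoxA and 0.43 for HoxB, and at 6 hours of 1.74, 0.96, 1.36 and 1.29 for HoxA to HoxD. A window of 1.2 kb gave 2 Hox genes higher and 6 lower for anti-MacroH2A2 MEF over ES and 3 higher and 3 lower for HA-Macro ES 12 over 3 hours, and an anterior minus posterior median of -0.46 for anti-MacroH2A2 MEF over ES and 0.084 for HA-H3.3 6 over 3 hours. With 5 kb at the start codon, 0 Hox genes were at least 2-fold higher in HA-Macro ES 12 over 3 hours. The share of all genes was not counted in that window, so this count cannot be read against it. The cause of these shifts was not tested. Coverage, every interval, thinning, trimming, whole first coding exons and 1 read added without a minimum moved none of the results they were run on. No paired analysis was possible because each condition has 1 library, and no replicate could be left out. Intervals cover counting error only.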
